A study of Rattus norvegicus with 60 samples.

Results

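Potassium channels let potassium leave the cell, which sets the resting potential, ends each action potential and limits how fast a neuron can fire again. The genes whose symbols start with Kcn encode the pore-forming subunits of voltage-gated, calcium- and sodium-activated, inwardly rectifying and tandem-pore channels, together with accessory subunits that carry no pore of their own. Pyrethroids are insecticides that slow the closing of voltage-sensitive sodium channels, and potassium currents are those that bring the membrane back to rest after sodium channels have opened.

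The Kcn genes were taken as every probe set of the array that the platform annotation assigns to a single symbol starting with Kcn, which gave 126 of 31042 probe sets and 75 of 14217 named genes. A total of 44 genes had 1 probe set and 31 had 2 or more, and unless stated otherwise each gene is described by whichever of its probe sets was brightest on average over the 60 arrays. All values are log2 RMA values, an array brightness summarized over the probes of a probe set, so a difference of 1 is a doubling and levels of different probe sets cannot be ranked as amounts of mRNA. Every array held RNA from the frontal cortex of 1 adult male Long-Evans rat at 62 to 64 days of age, collected 6 h after a single oral gavage, with no pooling. The 12 control rats received the corn oil vehicle alone. Each of 6 dosed groups held 8 rats, at 0.3, 1 or 3 mg/kg for deltamethrin and at 1, 10 or 100 mg/kg for permethrin. Deltamethrin carries an α-cyano group and permethrin does not. The middle doses of the compounds are those the study took as having no observed effect on behavior, and the highest doses are not matched for behavioral effect. Because the tissue is a mixture of cells, fewer cells of a type and less RNA per cell cannot be told apart.

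Slc17a7 and Gad1, markers of excitatory and inhibitory neurons, were bright on every array. The vesicular glutamate transporter gene Slc17a7 ranged from 11.90 to 13.01 over the 60 arrays, and Gad1, which makes the inhibitory transmitter GABA, from 11.12 to 12.37. Of other excitatory neuron markers, Camk2a ranged from 10.24 to 12.75, Neurod6 from 8.21 to 9.83 and Tbr1 from 7.83 to 9.51. Ttr, which defines choroid plexus, ranged from 7.42 to 13.56. The striatal receptor gene Drd2 ranged from 7.53 to 10.11. The arrays also fell into 2 sets that match the rat numbers in the sample titles: 24 lower-numbered rats (vehicle rats 1 to 6 and rats 1 to 3 of each dose) and 36 higher-numbered rats (vehicle rats 7 to 12 and rats 4 to 8 of each dose). The sample labels name no cohort, but the sizes of these sets are those of the dosing cohorts that the study's methods combine for the arrays, whose rats were dosed on different days. Both sets hold every treatment group, but 6 of 12 vehicle rats and only 3 of 8 rats per dose are in the first.

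Promoter sequences are shown for 4 members on which later results turn, from RefSeq on the GRCr8 build. Each run is the 250 bases before a start given in the RefSeq promoter table, written 5′ to 3′, and capitals mark TGACG on either strand (CGTCA on the other), the core of the element bound by the activity-regulated factor CREB. For Kcna3 and Kcnj4 that start is the outer end of the listed gene. For Kcnq5 it lies 1.12 kb inside the listed gene, and for Kcnk2, which has 2 listed windows and is shown by the first, 56 kb inside. Kcna3 is the member with an unadjusted p under 0.05 at 3 doses and Kcnk2 the one with the largest share of variance between treatment groups. Kcnq5 and Kcnj4, by their brightest probe sets, varied in opposite ways between arrays.
Kcna3, chr2:197320074-197320323, plus strand: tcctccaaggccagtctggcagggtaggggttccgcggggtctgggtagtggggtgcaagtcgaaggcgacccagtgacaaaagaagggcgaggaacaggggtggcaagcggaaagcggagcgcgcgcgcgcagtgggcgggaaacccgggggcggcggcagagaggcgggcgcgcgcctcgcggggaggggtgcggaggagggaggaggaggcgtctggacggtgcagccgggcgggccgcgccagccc
Kcnk2, chr13:103438643-103438892, minus strand: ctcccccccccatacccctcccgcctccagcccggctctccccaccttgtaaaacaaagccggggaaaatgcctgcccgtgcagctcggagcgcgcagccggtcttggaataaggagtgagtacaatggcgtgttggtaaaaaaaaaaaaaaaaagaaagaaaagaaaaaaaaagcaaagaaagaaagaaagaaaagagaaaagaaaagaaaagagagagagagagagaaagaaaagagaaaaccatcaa
Kcnq5, chr9:31891282-31891531, minus strand: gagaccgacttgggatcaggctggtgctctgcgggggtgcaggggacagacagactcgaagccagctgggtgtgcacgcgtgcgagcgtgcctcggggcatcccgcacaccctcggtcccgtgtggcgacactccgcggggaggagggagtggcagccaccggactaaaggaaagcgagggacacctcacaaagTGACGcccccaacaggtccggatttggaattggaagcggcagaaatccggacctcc
Kcnj4, chr7:112954548-112954797, minus strand: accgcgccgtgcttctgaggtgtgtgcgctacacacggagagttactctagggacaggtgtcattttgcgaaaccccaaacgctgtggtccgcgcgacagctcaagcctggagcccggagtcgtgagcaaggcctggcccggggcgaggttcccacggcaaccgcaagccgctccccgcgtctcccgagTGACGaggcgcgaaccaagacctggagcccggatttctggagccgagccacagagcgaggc
A window was listed for 52 of the 75 genes. The letters TGACG occurred in 11 of these windows (21.2%), beside 19.0% of all 27457 windows of this length, and the full palindrome TGACGTCA, which contains TGACG, in 0 of 52 beside 1.70%. Kcn windows had a median GC content of 63.4%, beside 52% in all windows. The Kcnq5 and Kcnj4 windows each hold TGACG at 1 place, and those of Kcna3 and Kcnk2 at 0.

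The first question was whether any potassium channel gene differed from vehicle at any dose. No Kcn gene did after adjustment over all probe sets (limma, Benjamini-Hochberg, adjusted p under 0.05): the count was 0 of 75 at each of the 6 doses, beside 0% of 31042 probe sets at each dose. Mean differences from vehicle ran from a ratio of 0.833 (Kcnd2, 1 mg/kg permethrin) to 1.23 (Kcns1, 10 mg/kg permethrin). At 3 mg/kg deltamethrin the 95% interval of the difference lay within 1.5-fold of vehicle for 73 of 75 genes, and at 100 mg/kg permethrin for 74. Over the 6 doses the interval lay within 1.5-fold for 71 to 74 genes and within 2-fold for all 75. The interval that reached farthest from 0 was that of Kcns1 at 5 doses and that of Kcnc2 at 0.3 mg/kg deltamethrin. The median difference of the 75 genes was 0.0067 at 3 mg/kg deltamethrin and -0.0031 at 100 mg/kg permethrin on the log2 scale, beside 0.0078 and 0.0166 for all named genes.

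**Figure D1:**
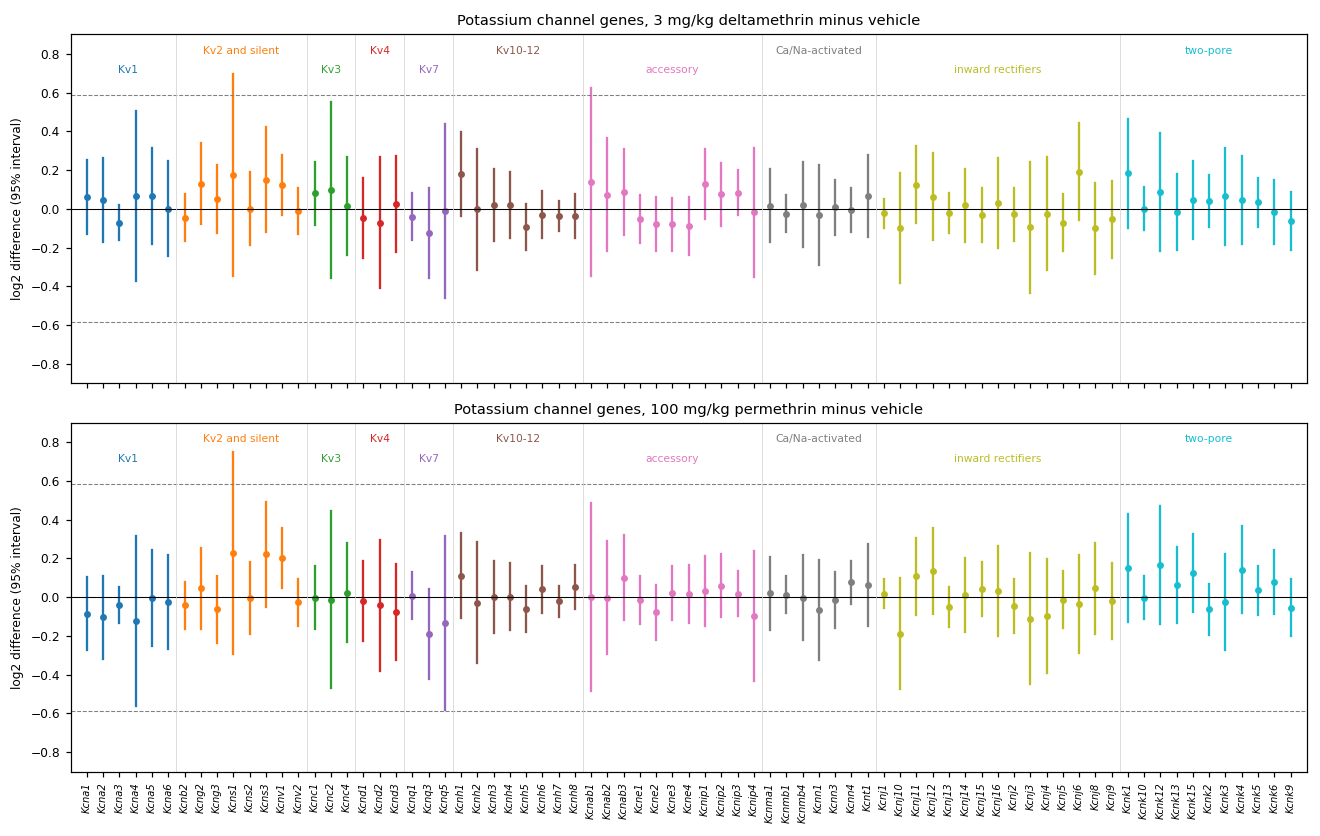
Log2 difference from vehicle for each of the 75 Kcn genes at 3 mg/kg deltamethrin (top) and 100 mg/kg permethrin (bottom), 8 dosed against 12 vehicle rats. Points are limma estimates, vertical lines 95% intervals, colors mark subfamilies and dashed lines mark a 1.5-fold difference; 73 and 74 of the intervals stay between the dashed lines.

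Without adjustment, few genes had p under 0.05. At 0.3 mg/kg deltamethrin there were 3 of 75 (Kcna3, Kcnk4 and Kcnma1), beside 0.71% of 14217 named genes. At 1 mg/kg deltamethrin there were 4 (Kcna3, Kcne2, Kcnh7 and Kcnv1), beside 2.38%, and at 3 mg/kg there were 0, beside 1.34%. For permethrin the counts were 0 at 1 mg/kg (beside 1.08%), 3 at 10 mg/kg (Kcna3, Kcnj11 and Kcnk2, beside 4.22%) and 1 at 100 mg/kg (Kcnv1, beside 1.24%). Over the 6 doses 8 genes had at least 1 such p, beside 8.16% of all named genes, 2 genes (Kcna3 and Kcnv1) had it at 2 or more doses, beside 1.98%, and Kcna3 was the member with 3, beside 0.626% of all named genes with 3 or more. All 6 comparisons share the same 12 vehicle rats, so a gene low or high in those rats shifts all of them. Mean differences lay on the same side of vehicle at all 6 doses for 19 genes, 12 above and 7 below. The share of all named genes is not given for this count, so it only describes the members.

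**Figure D2:**
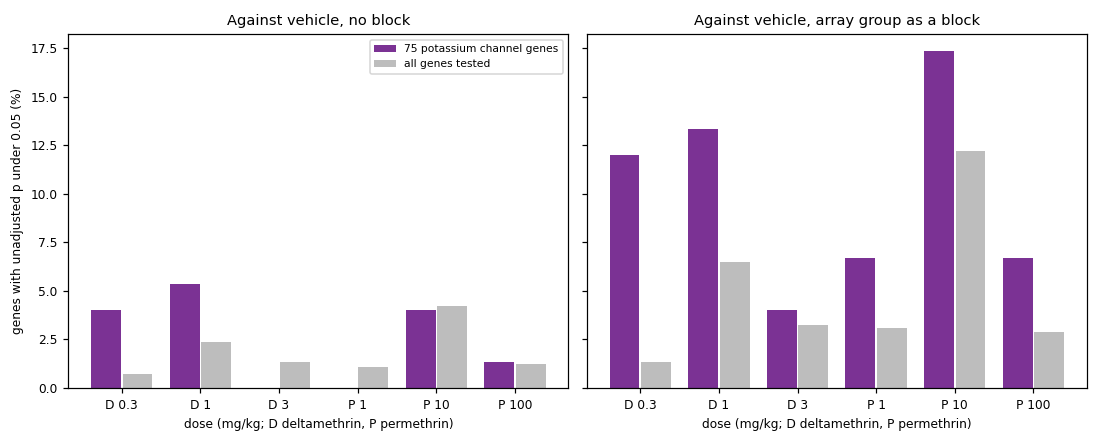
Percent of the 75 Kcn genes (purple) and of all 14217 named genes (grey) with an unadjusted limma p under 0.05 at each dose against vehicle, without (left) and with (right) the set of lower- or higher-numbered rats as a block. At 3 mg/kg deltamethrin no Kcn gene passes without the block and 3 pass with it.

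Among voltage-gated subunits, Kcnv1 had the lowest p of all members. It encodes a silent subunit that forms no channel alone and modifies the Kv2 channels it joins. Vehicle rats ranged from 9.98 to 10.66 with a median of 10.40. At 100 mg/kg permethrin rats ranged from 10.32 to 10.73 (median 10.63), and 7 of 8 lay above the vehicle mean, although the groups overlapped. The log2 difference was 0.20 (SE 0.08, limma p = 0.0112, adjusted p = 1.00). At 1 mg/kg deltamethrin rats ranged from 10.38 to 10.88 (median 10.59), also with 7 of 8 above the vehicle mean, and the difference was 0.18 (p = 0.0223, adjusted p = 1.00). The difference at 3 mg/kg deltamethrin was 0.12 (95% interval -0.03 to 0.28), and medians at the other 3 doses ran from 10.34 to 10.53. The lowest vehicle value, 9.98 in rat 12, lay below every dosed rat, and without that rat the difference of Kcnv1 at 100 mg/kg permethrin was 0.16 (p = 0.0314). In the regression on permethrin dose the slope for Kcnv1 was 0.0017 per mg/kg (p = 0.0124, adjusted p = 1.00), the 1 Kcn gene with an unadjusted p under 0.05 there, beside 0.647% of all named genes. Treatment groups carried 17.1% of the variance of Kcnv1 over the 60 arrays, where 7 groups take up some variance by chance alone.

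Kcna3 encodes the Kv1.3 delayed rectifier of neurons and immune cells. Its probe set was dim, with a mean of 5.33, below the lower quartile of the table at 5.76. Vehicle rats ranged from 5.26 to 5.55 (median 5.39). Rats ranged from 5.16 to 5.44 at 0.3 mg/kg deltamethrin, from 5.13 to 5.41 at 1 mg/kg deltamethrin and from 5.09 to 5.49 at 10 mg/kg permethrin, with 6 of 8 below the vehicle mean in each. The groups overlapped at every dose. Log2 differences at these 3 doses were -0.10, -0.10 and -0.10, with limma p from 0.0308 to 0.0429 and adjusted p of at least 0.961. At the other 3 doses 5 to 7 of 8 rats lay below the vehicle mean, and unadjusted p was over 0.05. Of the other Kv1 genes, Kcna1, the main axonal Kv1 subunit, was 0.17 below vehicle at 1 mg/kg permethrin (p = 0.0846); the log2 difference was -0.50 in the lower-numbered rats (p = 0.00311) and 0.09 in the higher-numbered rats. All 6 Kv1 genes had means below vehicle at 100 mg/kg permethrin, with log2 differences from -0.12 to -0.0052. At 3 mg/kg deltamethrin 5 of 6 lay above it, Kcna6 by 0.0013 and Kcna2 by 0.04. Kcna6 and Kcna2 also had other probe sets below vehicle at that dose. Shares of all named genes are not given for these counts, so they only describe the members.

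The remaining voltage-gated groups gave no p under 0.05 apart from Kcnh7. Kcnh7 encodes an Erg channel that slows repetitive firing, and rats at 1 mg/kg deltamethrin ranged from 6.23 to 6.51, against 6.37 to 6.58 in vehicle rats. This was a log2 difference of -0.08 (SE 0.04, p = 0.0401, adjusted p = 1.00). Kcnh1, an Eag channel, had the lowest p of any member at 3 mg/kg deltamethrin: rats ranged from 9.61 to 10.31 (median 9.91) against 9.47 to 10.28 (median 9.70) in vehicle rats, a difference of 0.18 (p = 0.106). The Kv4 genes, pores of the dendritic A-type current, had a median difference of -0.22 at 1 mg/kg permethrin, where Kcnd3 was at -0.22 (p = 0.0822), Kcnd2 at -0.26 (p = 0.124) and Kcnd1 at 0.11 (p = 0.287). The interval for Kcnd2 reached from -0.60 to 0.07. Kv3 genes permit the fast spiking of inhibitory interneurons, and Kcnc1 was at 0.15 (p = 0.0757) at 10 mg/kg permethrin. Kcnq3, a subunit of the M current that restrains firing, ranged from 6.99 to 7.58 at 100 mg/kg permethrin against 7.18 to 8.05 in vehicle rats. There 7 of 8 rats lay below the vehicle mean (log2 difference -0.19, p = 0.109). The other Kcnq3 probe set lay above vehicle at that dose, at 0.02.

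**Figure D3:**
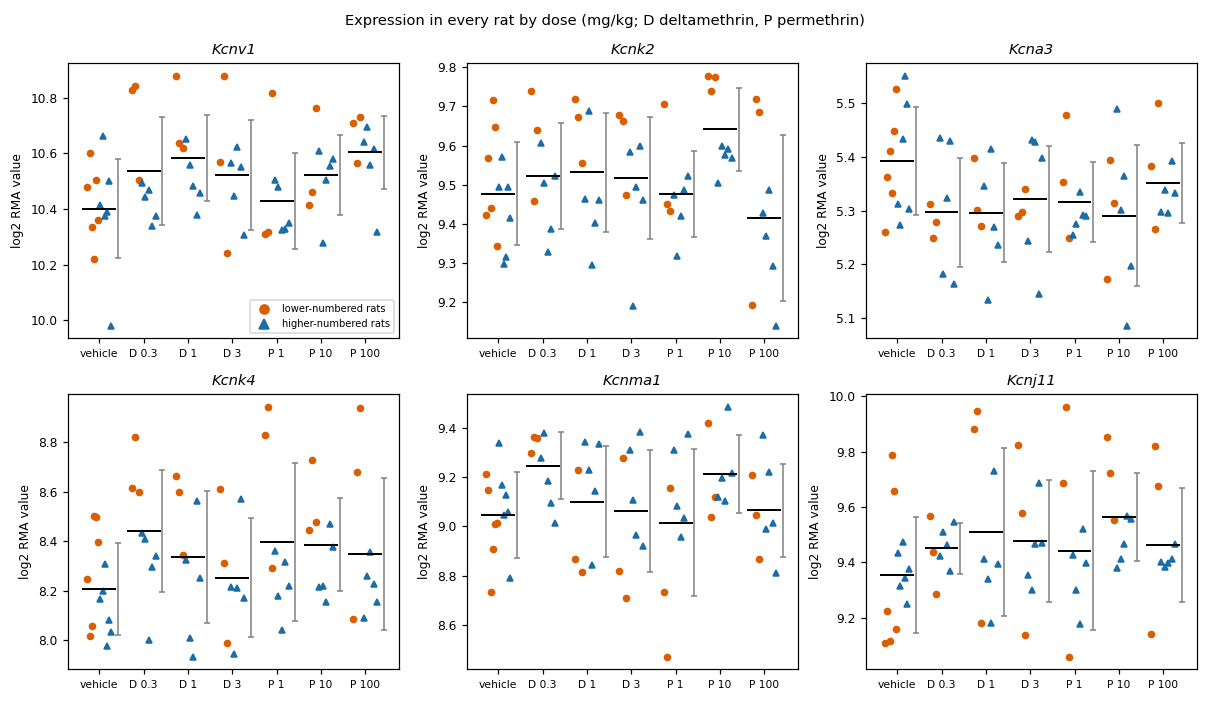
Log2 RMA value of every rat for Kcnv1, Kcnk2, Kcna3, Kcnk4, Kcnma1 and Kcnj11 in the 7 treatment groups (12 vehicle rats, 8 per dose). Circles are lower-numbered and triangles higher-numbered rats, black lines are group means and grey bars 1 SD on either side; each dose group overlaps with vehicle, including Kcnk2 at 10 mg/kg permethrin, where all 8 rats lie above the vehicle mean.

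Among tandem-pore channels, which pass the potassium leak at rest, Kcnk2 had p under 0.05 at 1 dose, on 1 of its 2 probe sets. It encodes TREK-1, a leak channel opened by stretch and lipids. Rats at 10 mg/kg permethrin ranged from 9.51 to 9.78 (median 9.60), and vehicle rats from 9.30 to 9.72 (median 9.47). All 8 treated rats lay above the vehicle mean, though the ranges overlapped. The log2 difference was 0.16 (SE 0.07, limma p = 0.0169, adjusted p = 0.961). The other Kcnk2 probe set was at 0.02 (SE 0.07, p = 0.764) at that dose. At 100 mg/kg permethrin the median was 9.40 and 5 of 8 rats lay below the vehicle mean, so the means did not follow the dose. Kcnk2 alone of Kcn genes had an unadjusted p under 0.05 (0.0193) in the test of any permethrin dose, beside 1.51% of all named genes. Treatment groups carried 17.6% of its variance, the highest share of any member, though 7 groups take up some variance by chance alone. Kcnk4, which encodes the related TRAAK channel, ranged from 8.00 to 8.82 at 0.3 mg/kg deltamethrin against 7.98 to 8.50 in vehicle rats, with 7 of 8 above the vehicle mean (log2 difference 0.23, p = 0.0432, adjusted p = 1.00).

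Calcium-activated and inwardly rectifying channels gave 1 gene each. Kcnma1 encodes the pore of the BK channel, which speeds repolarization when calcium enters. At 0.3 mg/kg deltamethrin rats ranged from 9.01 to 9.38 (median 9.29) and vehicle rats from 8.73 to 9.34 (median 9.05), a log2 difference of 0.20 (p = 0.0375, adjusted p = 1.00). The other 2 Kcnma1 probe sets lay below vehicle at that dose, at -0.07 (p = 0.421) and -0.06 (p = 0.337). At 1 and 3 mg/kg deltamethrin the medians were 9.19 and 9.04, so the medians did not increase with dose. Kcnj11 encodes the pore of the ATP-sensitive channel that couples metabolism to firing. All 8 rats at 10 mg/kg permethrin lay above the vehicle mean, from 9.38 to 9.85 against 9.11 to 9.79 (log2 difference 0.21, p = 0.0395, adjusted p = 0.961). Its other 2 probe sets were at 0.01 (p = 0.892) and 0.11 (p = 0.496). At that same dose all 5 measured markers of excitatory neurons had means below vehicle, by 0.098 to 0.40, with none at p under 0.05, and their mean level ranged from 9.86 to 10.22 against 9.89 to 10.47. Scores on the first principal component of all probe sets, described further below, were above 30 in 3 of 8 rats at that dose and in 2 of 12 vehicle rats. Medians on all arrays above 30 and on the other arrays were 9.79 and 9.40 for Kcnj11, and 9.72 and 9.47 for Kcnk2. The component carried 63.1% of the variance of Kcnj11 and 31.8% of that of Kcnk2. The parts of these markers and of the component in the Kcnk2 and Kcnj11 values were not tested. The median difference of the 15 inwardly rectifying genes was -0.02 at 3 mg/kg deltamethrin and -0.01 at 100 mg/kg permethrin.

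Accessory subunits carry no pore and set how channels gate and reach the membrane. Kcne2, of the MinK-related family, ranged from 6.67 to 7.14 at 1 mg/kg deltamethrin (median 6.90) against 6.90 to 7.58 in vehicle rats (median 7.06), and 7 of 8 rats lay below the vehicle mean. The log2 difference was -0.16 (SE 0.07, p = 0.0282, adjusted p = 1.00), made up of -0.28 in the higher-numbered rats and 0.01 in the lower-numbered rats. Its other 2 probe sets were at -0.05 (p = 0.488) and -0.0045 (p = 0.919). Both were dim, with means of 4.38 and 4.39, below the lower quartile of the table at 5.76. Kcne2 and the inward rectifier Kcnj13 are both known from choroid plexus, and Kcnj13 was at -0.10 at this dose (p = 0.057). Of the 5 measured choroid plexus and meningeal markers, 4 had means below vehicle there, Ttr at -1.33 (p = 0.079) and Kl at -0.08, and none had p under 0.05. Their mean level ranged from 7.98 to 8.49 at this dose and from 7.95 to 9.49 in vehicle rats. The part of choroid plexus tissue in the Kcne2 value was not tested. KChIP genes, whose products bind Kv4 channels, were led by Kcnip3 at 0.10 (p = 0.0925, 0.3 mg/kg deltamethrin). At 0.3 mg/kg deltamethrin all 8 striatal markers had means below vehicle, with a median difference of -0.22 and Rgs9 at -0.23 (p = 0.00605). Their mean level ranged from 8.47 to 10.02 against 9.54 to 10.29 in vehicle rats, with group medians of 9.85 and 9.84, and the low mean rested on rat 2 at 8.47. Without that rat 6 of 8 markers had means below vehicle, with a median difference of -0.05, while Kcnk4 was at 0.18 (p = 0.128) and Kcnma1 at 0.18 (p = 0.0675).

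Genes that work with potassium channels but carry another symbol were examined as a separate list, of which 22 of 25 were measured. Cnih2, an AMPA receptor auxiliary protein that was placed on that list, was the 1 of 22 genes with an unadjusted p under 0.05 over the 6 doses. Of all named genes, 8.16% had such a p at 1 or more doses. For Cnih2 it was at 1 mg/kg permethrin (log2 difference -0.63, limma p = 0.0376, adjusted p = 1.00). Its values ran from 7.21 to 12.49 over the 60 arrays around a median of 11.98. Vapb, which tethers Kv2 channels to the endoplasmic reticulum, was at 0.22 at 10 mg/kg permethrin (p = 0.0546). Amigo1, a Kv2 partner, was at 0.24 at 1 mg/kg deltamethrin (p = 0.0803). Dpp6, a Kv4 partner, was at 0.12 at 10 mg/kg permethrin (p = 0.123). The median of the 22 genes lay between -0.03 and 0.05 at the 6 doses.

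The compounds were then set directly against each other at 3 pairs of doses, with 8 rats in each group. No Kcn gene passed at an adjusted p under 0.05 in any pair, beside 0% of 31042 probe sets. At the shared dose of 1 mg/kg no Kcn gene had an unadjusted p under 0.05, beside 3.11% of all named genes. The lowest p there were those of Kcnv1 (deltamethrin minus permethrin 0.15, p = 0.0744) and Kcnc1 (0.16, p = 0.0843), and the 95% interval lay within 1.5-fold for 72 of 75 genes. Between the middle doses (deltamethrin at 1 mg/kg, permethrin at 10 mg/kg) Kcnh7 was at -0.09 (p = 0.045, adjusted p = 1.00), the 1 gene with an unadjusted p under 0.05, beside 0.76%. Kcnk9, the TASK-3 leak channel, was at 0.14 (p = 0.0926), and 73 of 75 intervals lay within 1.5-fold. Between the highest doses there was none, beside 0.626%, and 70 of 75 intervals lay within 1.5-fold. The lowest p there was that of Kcnj6, which encodes GIRK2, a channel opened by G protein-coupled receptors: rats at 3 mg/kg deltamethrin ranged from 9.03 to 9.61 and at 100 mg/kg permethrin from 8.26 to 9.29, a difference of 0.23 (95% interval -0.05 to 0.50). These intervals bound the difference between the α-cyano compound and the compound without that group at these doses, and do not show that the compounds act alike.

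Regression on dose and the test of any dose gave the same counts at an adjusted p under 0.05, 0 of 75 Kcn genes for each compound, beside 0% of 31042 probe sets. For deltamethrin no Kcn gene had an unadjusted p under 0.05 in the regression (beside 1.54% of all named genes) or in the test of any dose (beside 0.753%). The lowest regression p were those of the Eag channel Kcnh5 (-0.032 per mg/kg, p = 0.12), the KChIP gene Kcnip1 (0.040 per mg/kg, p = 0.121) and the silent subunit Kcng2 (0.042 per mg/kg, p = 0.131). For permethrin Kcnv1 was followed by Kcnj10, the main inward rectifier of glia (-0.0019 per mg/kg, p = 0.141), and Kcnk2 (-0.00097 per mg/kg, p = 0.144). The study's methods apply a one-way test only to probe sets first selected by regression, a selection that was not made here. A one-way test without moderation over all probe sets gave 0 Kcn genes for deltamethrin and 2 for permethrin at an unadjusted p under 0.05, beside 1.11% and 1.23% of all named genes, and 0 for both after adjustment.

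Treatment group carried a median of 5.07% of a Kcn gene's variance over the 60 arrays (5.66% for all named genes), and the split of lower- from higher-numbered rats a median of 11% (14.2% for all named genes). A single principal component of all probe sets, which held 58.0% of the total variance, carried a median of 42.2% of a Kcn gene's variance (42.3% for all named genes). It carried more than treatment did in 62 of 75 members. The component was computed from these same values, so these shares describe the arrays and test nothing. In this respect the Kcn genes were close to the rest of the table, although 24.0% of them, beside 30.8% of all named genes, had a correlation with that component above 0.8 or below -0.8.

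**Figure D4:**
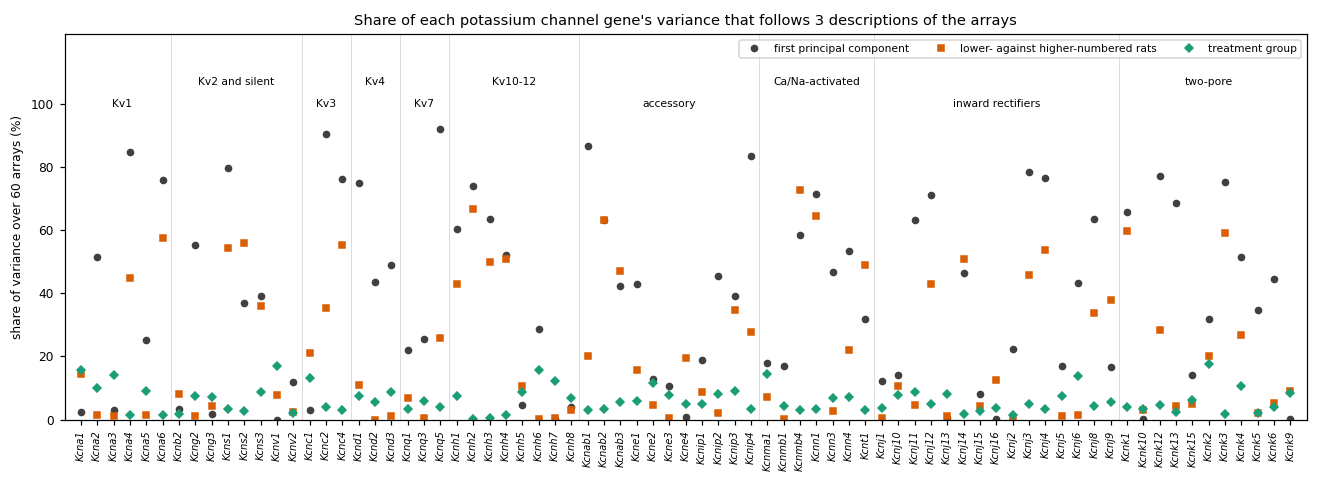
Percent of each Kcn gene's variance over 60 arrays that follows the first principal component (black circles), the split of lower- from higher-numbered rats (orange squares) and the 7 treatment groups (green diamonds), by subfamily. Treatment shares end at 17.6% (Kcnk2), while the first component reaches 92.2% (Kcnq5).

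The genes at the ends of this variation ran in opposite directions, each taken by its brightest probe set. Kcnq5, an M-current subunit, had 92.2% of its variance on the component and Kcnc2, a Kv3 gene, 90.5%. Both had a correlation below -0.8, as did Kcnab1, Kcna4, Kcnip4 and Kcnj3. Kcnq5, Kcnc2 and Kcnj3 also had another probe set on the opposite side, with correlations of up to 0.76, 0.54 and 0.54. The inward rectifier Kcnj4 had 76.6% and the silent subunit Kcns1 79.6%, and both were among the 12 members with a correlation above 0.8. Kcns1 ranged from 7.47 to 9.36 in the 24 lower-numbered rats (median 8.39) and from 7.02 to 7.84 in the 36 higher-numbered rats (median 7.52). Kcnq5 ran the other way, from 8.28 to 10.16 (median 9.31) and from 9.17 to 10.18 (median 9.76). The spread was wider in the lower-numbered rats, with an SD of 0.60 against 0.24 for Kcnq5. Kcns1 also had the largest SD within treatment groups (0.58), followed by Kcnab1 (0.54), Kcnc2 (0.51), Kcnq5 (0.50) and Kcna4 (0.49). Between the sets of rats the largest mean differences, higher-numbered minus lower-numbered, were those of Kcns1 (-0.84), Kcna4 (0.63), Kcnc2 (0.59), Kcnh2 (-0.55) and Kcnab2 (-0.51). Of the 75 genes, 24 were higher and 51 lower in the higher-numbered rats. The matching split of all named genes is not given, so these counts only describe the members.

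Gene length differed along the same axis. The 6 members with a correlation below -0.8 had a median RefSeq gene length of 325 kb (7.46 to 1151 kb), and the 12 members above 0.8 a median of 34.6 kb (7.41 to 105 kb). Over all named genes the medians were 49.2 kb (1783 genes with a length) and 14.4 kb (2580 genes), so the order was the same in the whole table. The members were sorted by their brightest probe sets, and Kcnq5, Kcnc2 and Kcnj3 had another probe set on the opposite side. No test was made of these lengths.

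Because vehicle and dosed rats were split unevenly over the sets of lower- and higher-numbered rats, each comparison was fitted again with the set as a block. The count at an adjusted p under 0.05 was again 0 of 75 Kcn genes in each of the 13 comparisons. Of all probe sets, 3 (0.00966%) passed at 3 mg/kg deltamethrin, 2 (0.00644%) in the test of any deltamethrin dose, 4 (0.0129%) in the deltamethrin regression and 1 (0.00322%) in the permethrin regression. Unadjusted counts grew from 3, 4 and 0 to 9, 10 and 3 Kcn genes at 0.3, 1 and 3 mg/kg deltamethrin, beside 1.35%, 6.51% and 3.24% of all named genes. For permethrin they grew from 0, 3 and 1 to 5, 13 and 5 at 1, 10 and 100 mg/kg, beside 3.11%, 12.2% and 2.89%. In the tests of any dose they grew to 6 for deltamethrin and 5 for permethrin, beside 2.15% and 3.87%, and in the regressions 1 gene each had such a p, beside 2.79% and 1.08%. Between the compounds, 1, 1 and 0 genes had one with the block at 1 against 1, 1 against 10 and 3 against 100 mg/kg, beside 5.07%, 1.24% and 1.03%. With the block, 21 members had p under 0.05 at 1 or more doses, beside 20.8% of all named genes, and 9 at 3 or more doses, beside 1.87%. The shared vehicle rats enter each of these doses.

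Kcnk1, Kcns3 and Kcnh1 had no p under 0.05 at any dose without the block. Kcnk1, which encodes the TWIK-1 leak channel, had differences of 0.17 to 0.24 with unadjusted p from 0.00479 to 0.0436 at all 6 doses (adjusted p at least 0.513). Kcns3, another silent Kv2 modifier, had p under 0.05 at 5 doses with differences of 0.23 to 0.28, and Kcnh1 at 4 doses. Whether the shifts differed between the sets of rats was not tested. For Kcnk1 at 10 mg/kg permethrin the difference was 0.42 (SE 0.17) in the lower-numbered rats, with 3 dosed and 6 vehicle rats, and -0.00 (SE 0.07) in the higher-numbered rats, with 5 and 6. The 3 lower-numbered rats at that dose had scores of 33.7 to 82.1 on the principal component above, and the 6 lower-numbered vehicle rats scores of -24.2 to 63.8, with 4 of 6 below 0. That component carried 65.8% of the variance of Kcnk1, and its part in the difference was not tested. For Kcns3 at that dose the values were 0.55 (SE 0.18) and 0.08 (SE 0.11). Kcnv1 at 100 mg/kg permethrin lay at 0.25 (SE 0.14) and 0.18 (SE 0.08), above vehicle in both sets. Kcnv1 was shown for its low p over these same arrays, so this is no independent support. The higher-numbered vehicle rats include rat 12, whose Kcnv1 value lay below every dosed rat. The 6 lower-numbered vehicle rats enter every one of the lower-numbered comparisons.

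**Figure D5:**
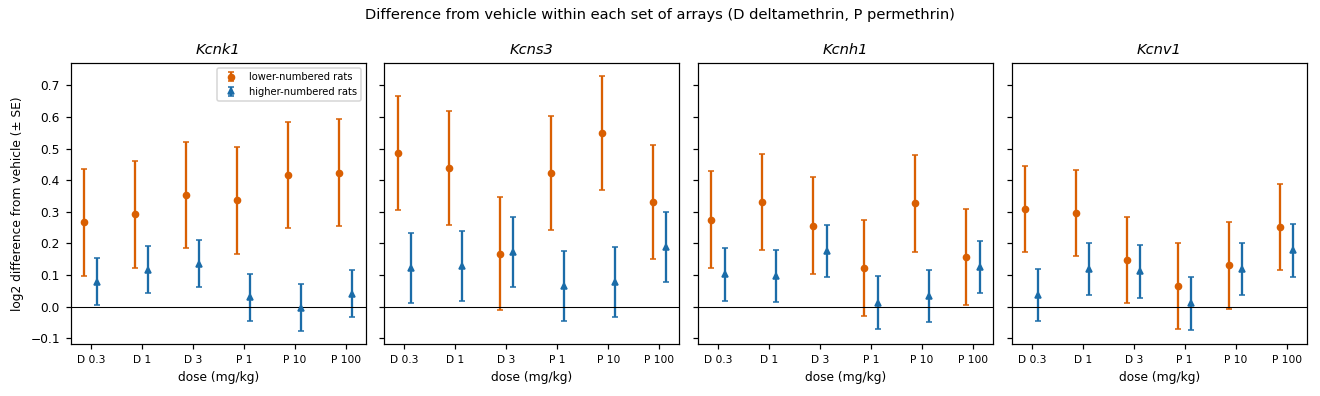
Log2 difference from vehicle (limma estimate ± SE) within the lower-numbered rats (circles, 3 dosed and 6 vehicle rats) and the higher-numbered rats (triangles, 5 dosed and 6 vehicle rats) for Kcnk1, Kcns3, Kcnh1 and Kcnv1 at each dose. For Kcnk1 at 10 mg/kg permethrin the circle lies at 0.42 and the triangle at 0.00.

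Several genes were measured by more than 1 probe set, and these did not always run together. At 3 mg/kg deltamethrin the probe sets of 20 of 31 such genes lay on both sides of vehicle, and at 100 mg/kg permethrin those of 19. Some lay close to 0, such as those of Kcnk10 (-0.04 to 0.0014 at 3 mg/kg deltamethrin), where both sides can arise by chance. For Kcnma1 at 100 mg/kg permethrin the 3 probe sets ran from -0.20 to 0.02. The lowest unadjusted limma p among them was 0.0298, on a probe set below vehicle that is not the brightest. For Kcnj6 at 3 mg/kg deltamethrin 4 probe sets ran from -0.05 to 0.19. No Kcn probe set, of 126, passed an adjusted p under 0.05 at any dose. Between the lower- and higher-numbered rats, 13 of 31 genes had probe sets on both sides of 0. Shares of all named genes are not given for the counts on both sides, so these only describe the members. The brightest Kcnq5 probe set was 0.50 higher in the higher-numbered rats and its other 2 were 0.03 and 0.09 lower. For Kcnab2, which encodes a Kv1 beta subunit, the range was wider, from -1.32 to 0.19 over 4 probe sets. Which transcripts these probe sets detect was not examined.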

How the data were processed

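RNA from the frontal cortex of 60 rats was hybridized to Affymetrix rat expression arrays, 1 per rat. The authors deposited a table of log2 values made with RMA, which corrects background, normalizes by quantiles and summarizes probes, and no further scaling was applied. Values ran from 3.75 to 14.1 and array medians from 7.07 to 7.20. Arrays have no read depth, so the number of rats limits precision. Replicates are separate rats. RMA is named without a version in the submitters' processing notes. Groups came from the sample labels.

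Gene symbols came from the platform annotation: 20826 probe sets had 1 symbol, 436 several and 9780 none. All 75 Kcn symbols matched RefSeq by gene identifier. Differences were fitted over all 60 arrays with limma 3.58.1 (R 4.3.3), and dose regressions over the 36 arrays of a compound and vehicle, with p-values adjusted over the whole table (Benjamini-Hochberg) and a threshold of 0.05. The step was tested on simulated data. The sets of lower- and higher-numbered rats were found by k-means with 2 clusters on the first 2 principal components of all probe sets, and proved to match the numbers in the titles. Python 3.11.15, numpy 2.4.6, pandas 2.3.3 and matplotlib 3.10.9 were used for summaries and plots.

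Named genes were the 3 Kcn genes with the lowest p at each dose and in each regression, the 2 with the lowest p between compounds, 1 to 4 per subfamily in order of p, the 5 with the largest SD and the 5 with the largest difference between the sets of rats, genes whose probe sets differ in direction, and up to 4 partner genes. Promoter sequences and the members shown beyond this rule (Kcnk1 and Kcnj4, and marker genes) were chosen after values were seen. The members and lists were chosen with earlier results of these data known. Measurements by qRT-PCR were not analysed here.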

Additional observations from a re-analysis of the deposited data

Results flagged for a closer look

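In 22 named Kcn genes, 132 pairs of a gene and a dose group of 8 rats were searched for a rat whose gap to the nearest other rat exceeded 0.526 of the group's range (Dixon's 95% limit). Chance alone gives about 1 such value in 20 pairs, and 8 were found.

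Lowest values that stood apart were Kcne2 in rat 7 at 3 mg/kg deltamethrin (6.72, others 6.96 to 7.11), Kcnh5, an Eag-family channel, in rat 8 at 1 mg/kg permethrin (5.00, others 5.24 to 5.44), Kcnj6 in rat 2 at 100 mg/kg permethrin (8.26, others 8.88 to 9.29) and Kcnk2 in rat 5 at 3 mg/kg deltamethrin (9.19, others 9.46 to 9.68). Kcns3 was lowest in rat 6 at 1 mg/kg deltamethrin (7.02, others 7.64 to 8.12), and Kcnv1 in rat 8 at 100 mg/kg permethrin (10.32, others 10.56 to 10.73). Highest values that stood apart were Kcna3 in rat 2 (5.48, others 5.25 to 5.35) and Kcnv1 in rat 3 (10.82, others 10.31 to 10.51), both at 1 mg/kg permethrin.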

How the results depend on the processing

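No alternative brought a Kcn gene below an adjusted p of 0.05: the count was 0 in all 13 comparisons under every setting run for each, each rat left out in turn included. Counts at an unadjusted p under 0.05 did move. At 0.3, 1 and 3 mg/kg deltamethrin they were 3, 4 and 0, then 9, 10 and 3 with the set of rats as a block, 8, 6 and 5 when the model held component 1 of all probe sets, and 13, 14 and 9 with both, an alternative chosen after seeing the data. Of all named genes, 2.52%, 6.46% and 4.77% had such a p with component 1, and 4.97%, 10.2% and 7.47% with both. At 1, 10 and 100 mg/kg permethrin they were 0, 3 and 1, then 5, 13 and 5, then 0, 6 and 2, and 3, 12 and 6 with both, beside 3.46%, 8.43% and 3.21% of all named genes with component 1 and 3.31%, 12.2% and 4.02% with both. Leaving out 1 rat gave 0 to 5, 1 to 5 and 0 to 1 genes for deltamethrin, and 0 to 4, 1 to 6 and 1 to 1 for permethrin. The causes were not tested.

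Among named genes, 4 values changed sign: Kcne2 at 1 mg/kg deltamethrin (0.014 in the lower-numbered rats alone), Kcna1 and Kcnh6 at 1 mg/kg permethrin (0.090 and -0.0076 in the higher-numbered rats alone) and the permethrin slope of Kcnk2 (0.00082 per rank of dose). Leaving out 1 rat reversed none.

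Rats share numbers across groups. Of 168 same-numbered pairs 112 had a correlation of deviations over 0.1 and the lowest was -0.82 (median 0.37, against 0.0066 for pairs with different numbers). Equal numbers largely coincide with the same set, since rats 1 to 3 of each group are lower-numbered and dosed rats 4 to 8 higher-numbered. No label names the numbers as pairs, so they were not taken as pairing the rats. With the replicate number as a block 0 Kcn genes had an adjusted p under 0.05, and the unadjusted counts were 0, 1 and 0 for deltamethrin and 5, 2 and 2 for permethrin, beside 2.61%, 4.22% and 2.85%, and 7.55%, 5.51% and 5.23%, of all named genes, with Kcnh6 at 0.18 at 1 mg/kg permethrin (limma p = 0.0124, adjusted p = 0.521).

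The number of rats limits precision: the median SE of a difference from vehicle was 0.098.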
